A study of Mus musculus with 12 samples.

Results

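The platelet-derived growth factor (PDGF) family comprises the receptor genes Pdgfra and Pdgfrb and the ligand genes Pdgfa, Pdgfb, Pdgfc and Pdgfd. All 6 were taken by symbol from the annotation of the array, in which 18193 genes have a probe set with a single symbol. They have 14 such probe sets of 34945, namely 3 each for Pdgfra and Pdgfd and 2 for each of the others. Their levels were followed across 6 groups of 2 arrays of total RNA from cultured mouse brain cells. All cells came from the telencephalon of BL6 embryos at day 14.5 and were p53-/-, so every group, controls included, lacks p53.

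The 3 parental groups are called NSC (labelled as neural stem cells), OPC (labelled as oligodendrocyte precursors) and AST (labelled as astrocytes). Per the labels, NSC grew as spheres without serum, with PDGF at 10 ng/ml and bFGF. OPC were induced from NSC with PDGFAA at 10 ng/ml, bFGF at 2 ng/ml and 0.25% serum and were purified by immunopanning, with antibodies not given in the sources used here. AST were induced from NSC by 10% serum over 3 weeks. The lines NSCL61, OPCL61 and ASTL61 were made from these cells with an oncogenic HRas (HRasL61) on a plasmid that also carries EGFP, and were kept in neomycin at 0.5 mg/ml and sorted for GFP. The labels give no separate medium for the lines and no parents taken through electroporation, neomycin and sorting. HRasL61, those steps and any difference in added PDGF therefore cannot be told apart. Nothing in the labels says that the 2 arrays of a group came from separate cultures, so p-values measure only the spread between these arrays, which may be technical.

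PDGFs are dimers that bring 2 receptor molecules together, upon which the receptors, which are tyrosine kinases, phosphorylate each other and recruit enzymes and adaptors that signal through Ras, PI3 kinase and phospholipase C. PDGF-A and PDGF-C act mainly through PDGFRα, PDGF-D mainly through PDGFRβ and PDGF-B through both. In the brain PDGFRα is the receptor by which OPC respond to PDGF-A as a mitogen, while PDGFRβ is typical of pericytes and fibroblast-like cells. PDGF signalling is also well known from glioma.

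The sequences of the 250 bases before the start of transcription are shown for Pdgfra, Pdgfc and Pdgfd, the receptor and the 2 ligands with windows in the table whose levels differed most between groups. They come from RefSeq on build GRCm38.p6, which held windows for 4 of the 6 genes, and all 3 read 5′ to 3′ on the + strand. They lie at chr5:75152001-75152250, chr3:81036166-81036415 and chr9:6168236-6168485. Capitals mark matches to 6 motifs searched on both strands. Shares are given over 32851 windows of the same length. The TATA box (TATAAA) was in 12.4% of them and the GC box (GGGCGG) in 32.7%. The letters CCAAT were in 33.8%. The AP-1 site (TGANTCA) was in 6.75%. The E-box searched, CAGCTG, was in 13%. The core of SOX and TCF sites, ACAAAG, was in 16.5%.
Pdgfra: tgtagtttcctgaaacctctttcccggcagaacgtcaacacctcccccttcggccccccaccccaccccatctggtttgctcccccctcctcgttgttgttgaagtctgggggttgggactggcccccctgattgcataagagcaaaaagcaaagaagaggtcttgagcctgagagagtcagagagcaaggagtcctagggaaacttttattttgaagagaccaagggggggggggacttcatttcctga
Pdgfc: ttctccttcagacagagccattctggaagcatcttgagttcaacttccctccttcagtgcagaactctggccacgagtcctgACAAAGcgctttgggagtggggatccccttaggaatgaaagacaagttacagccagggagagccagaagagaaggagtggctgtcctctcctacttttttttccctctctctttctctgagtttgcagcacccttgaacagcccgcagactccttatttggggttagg
Pdgfd: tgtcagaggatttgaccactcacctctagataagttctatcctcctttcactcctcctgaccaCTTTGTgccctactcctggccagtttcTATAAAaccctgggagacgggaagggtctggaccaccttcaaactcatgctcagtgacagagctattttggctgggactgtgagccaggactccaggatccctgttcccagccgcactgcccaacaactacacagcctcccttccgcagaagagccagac
Pdgfra had no match to the 6 motifs in this window. Pdgfc had ACAAAG starting 168 bases before the start. Pdgfd had TATAAA starting 160 bases before it and ACAAAG on the other strand, printed as CTTTGT, at 187 bases, and no matches overlapped. The windows held few CpG dinucleotides, 4 in Pdgfra, 3 in Pdgfc and 3 in Pdgfd, against a median of 6 over all windows (quartiles 2 and 16). The windows before the 2 starts of Pdgfa held 19 and 28, with a GC content of 66.4% and 72.4%. A match is a description of the letters and not a site.

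Values are log2 signals per probe set as the authors deposited them, with array medians between 5.16 and 5.21. The marker lists fit the OPC label better than the NSC and AST labels. Of 15 OPC markers, 14 lay above 5.18, the median of all values, in OPC, with a mean over the list of 9.18 and 9.61 in the 2 arrays, against 4.43 to 6.15 in the other groups. The 14 include Sox10 (6.44 in OPC, 6.15 to 6.33 elsewhere) and Matn4 (5.59 in OPC, 5.67 to 6.04 elsewhere). These lay above 5.18 in all groups and hardly set OPC apart. Of 12 neural stem cell markers, 5 lay above it in NSC (means 5.07 and 5.35), fewer than the 7 to 10 in the other groups, and Sox2 had 4.41 and 6.79 in NSC and 10.07 or more elsewhere. Of 12 astrocyte markers, 8 lay above it in AST (means 5.72 and 5.73), among them Gja1 and, barely, Gfap (5.42 and 5.73), while 4, Aqp4 included, lay below. The list was highest in OPC, with 9 of 12 above it and means of 8.42 and 8.14. All 12 fibroblast markers lay above it in NSC (means 11.63 and 11.38) and 9 of 12 in AST (8.47 and 7.94) and ASTL61 (8.79 and 9.23). The list had means of 5.56 and 5.52 in NSCL61, 4.32 and 4.34 in OPC, and 4.94 and 4.78 in OPCL61. Of 12 pericyte markers 7 lay above it in NSC, but the defining genes Abcc9 and Kcnj8 lay below it in all 6 groups. Of 10 endothelial markers 7 lay below it in all 6 groups, the defining Pecam1 and Cdh5 included, and the other 3 above it in all. Of 10 microglial markers 7 lay below it in all 6 groups, Aif1 and Cx3cr1 included, and 2 above it in all. The remaining one, the lysosomal gene Cd68, had group means of 6.97 in NSCL61, 7.56 in OPCL61 and 5.66 in ASTL61 against 4.34 to 4.67 in the parents.

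**Figure D1:**
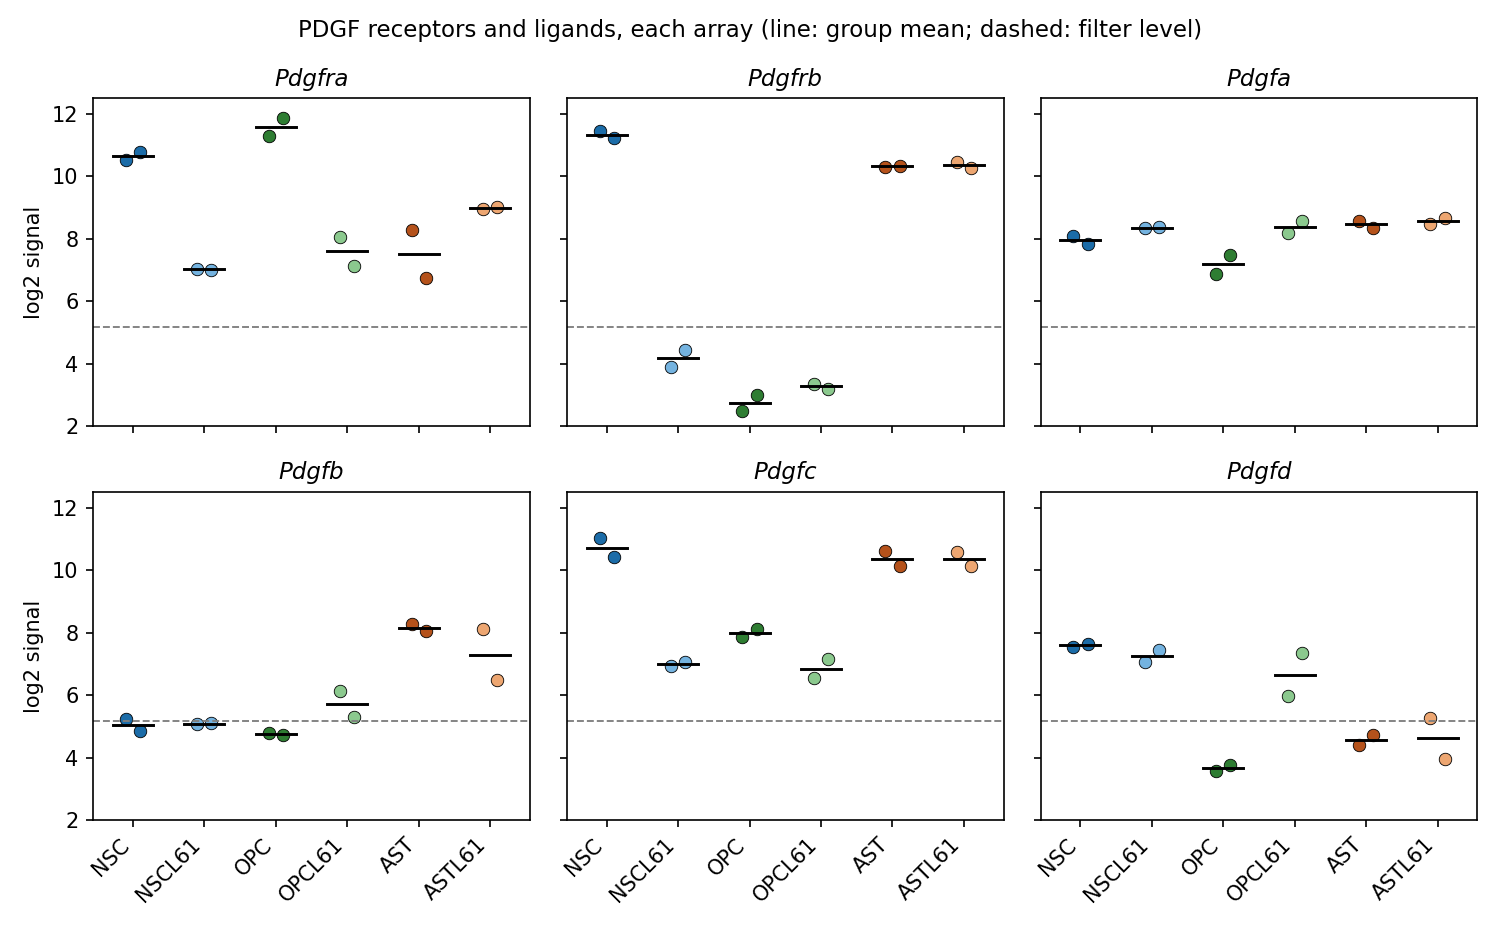
Log2 signal of the 6 genes in each of the 12 arrays (points) by group, with the group mean as a line and the level of 5.18 used as a filter as a dashed line. Pdgfra is highest in NSC and OPC, Pdgfrb and Pdgfc are high in NSC, AST and ASTL61, Pdgfb is highest in AST, and Pdgfd is high in NSC, NSCL61 and OPCL61.

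Pdgfra, which encodes PDGFRα, was high in NSC and OPC and fell in the HRasL61 lines made from them, while in the astrocyte line no change passed the test. The probe set with the highest signal gave 10.52 and 10.77 in the NSC arrays, 11.29 and 11.85 in OPC and 8.26 and 6.75 in AST. It gave 7.04 and 7.01 in NSCL61, 8.05 and 7.14 in OPCL61 and 8.96 and 9.0 in ASTL61. Both NSC and both OPC arrays lay above all arrays of the other 4 groups, and the AST arrays lay far apart (7.51 ± 1.07, mean ± SD, n = 2). Pdgfra fell by 3.62 ± 0.44 on the log2 scale (difference ± SE, a 12.3-fold change; adjusted p = 2.14e-04) from NSC to NSCL61 and fell by 3.98 ± 0.44 (15.8-fold; adjusted p = 8.04e-05) from OPC to OPCL61. The other 2 probe sets changed in the same direction, by -2.63 and -1.91 in NSCL61 and by -2.90 and -0.99 in OPCL61, all with adjusted p from 1.03e-04 to 0.00965. With the mean of the 3 probe sets the change in OPCL61 was -2.62. In bulk RNA, fewer cells with a transcript and less of it per cell cannot be told apart.

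In the astrocyte line the 2 Pdgfra values lay above both AST arrays, with a difference of 1.47 ± 0.44 that did not pass (adjusted p = 0.453). The size depended on the AST array left out, with 2.23 without AST replicate 1 and 0.72 without AST replicate 2, neither of which passed (adjusted p over the settings 0.0824 to 1). Of its 3 probe sets, all were higher in ASTL61, by 0.66 to 1.47, and none passed by limma. The changes of Pdgfra in the lines differed from each other. The change in ASTL61 exceeded that in NSCL61 by 5.09 ± 0.63 (adjusted p = 4.09e-04) and that in OPCL61 by 5.45 ± 0.63 (adjusted p = 2.14e-04). The changes in OPCL61 and NSCL61 differed by -0.36 ± 0.63 (95% interval -1.77 to 1.05; adjusted p = 0.692), which leaves room for a difference in either direction.

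In order of level Pdgfra ran OPC, NSC, ASTL61, OPCL61, AST and NSCL61. OPC lay 0.93 ± 0.44 above NSC (adjusted p = 0.109), and a second probe set gave 0.78 ± 0.34 (adjusted p = 0.0818). With only the arrays compared the first passed (0.93 ± 0.23, adjusted p = 0.0240). The remaining probe set gave the opposite sign, -0.56 ± 0.25 (adjusted p = 0.0944), so the order of these groups was not settled. NSC lay 1.67 ± 0.44 above ASTL61 (adjusted p = 0.0241). OPCL61, AST and NSCL61 did not differ beyond their spread as neighbours (adjusted p = 0.901 and 0.445). Levels of Pdgfra did not follow the mean of the OPC markers across groups. NSC had high Pdgfra with OPC marker means of 4.93 and 4.78, and Olig2, a transcription factor that defines the lineage, at 2.96 and 2.69, whereas OPCL61 had low Pdgfra with marker means of 6.15 and 5.78 and Olig2 at 6.82 and 5.90. The part of the fibroblast genes, which were high in NSC too, was not tested.

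**Figure D2:**
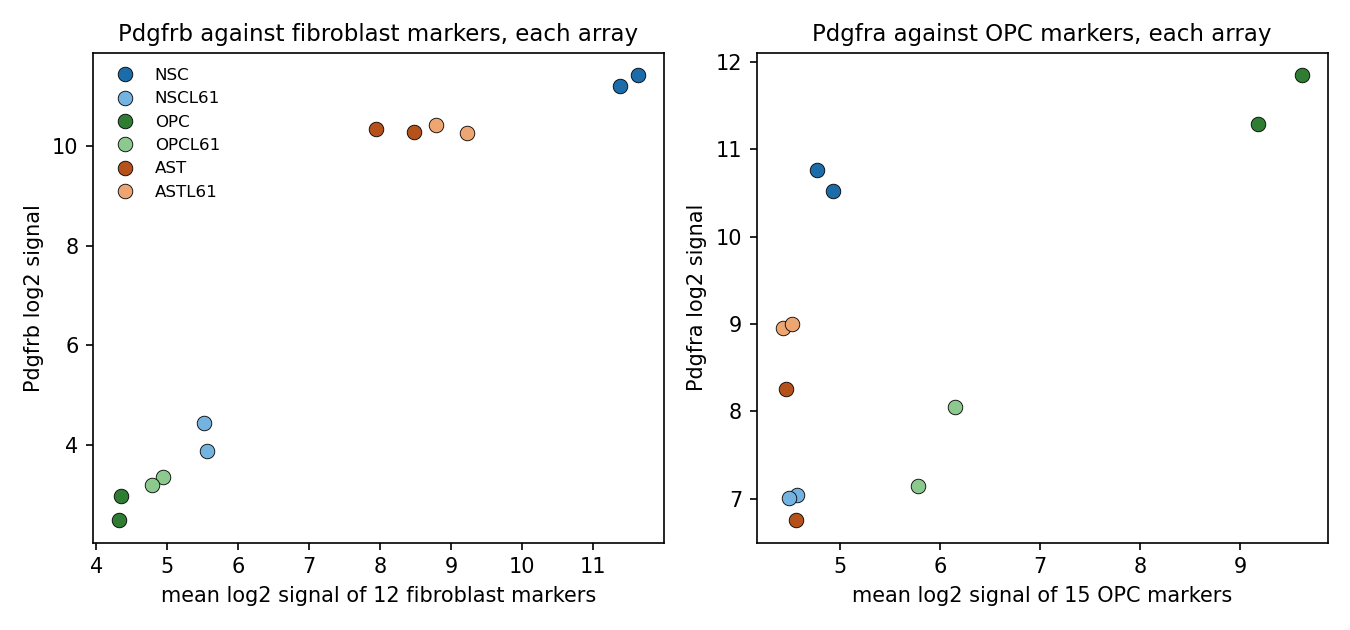
Pdgfrb against the mean of 12 fibroblast markers (left) and Pdgfra against the mean of 15 OPC markers (right), all in log2 signal, 1 point per array coloured by group. The AST, ASTL61 and NSC arrays are high on both axes on the left, while on the right the NSC arrays have Pdgfra at 10.52 and 10.77 with low OPC markers.

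Pdgfrb, which encodes PDGFRβ, divided the groups into NSC, AST and ASTL61 with high signals and OPC, OPCL61 and NSCL61 with signals near background. The probe set used gave 11.43 and 11.21 in NSC, 10.28 and 10.34 in AST and 10.44 and 10.27 in ASTL61. It gave 3.89 and 4.45 in NSCL61, 2.49 and 2.98 in OPC and 3.36 and 3.20 in OPCL61. No array lay between 4.45 and 10.27. From NSC to NSCL61 Pdgfrb fell by 7.15 ± 0.21 (adjusted p = 4.49e-08), the largest change of any of the 6 genes in a line against its parent. NSCL61 lies under 5.18, so its signal may be background, though the same probe set lay lower still in OPC and OPCL61. The size of the 142-fold change is therefore uncertain. The other probe set fell by 3.56 ± 0.18 (11.8-fold; adjusted p = 1.14e-06), from a lower NSC level of 8.61 and to 5.05.

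In ASTL61 Pdgfrb did not differ from AST beyond the spread between arrays, at 0.04 ± 0.21 (95% interval -0.43 to 0.52; adjusted p = 0.984). In OPC and OPCL61 both probe sets lay under 5.18, so no fold is given. They differed by 0.55 ± 0.21 (adjusted p = 0.0577) and 0.73 ± 0.18 (adjusted p = 0.00886). Of 15 alternative settings 4 passed, among them the choice of the second probe set and the mean of both (0.64, adjusted p = 0.0167). With the arrays centred on their median the first gave 0.57 (adjusted p = 0.0457). With 1 array left out the first gave 0.30 to 0.79, the latter without OPC replicate 2. The fall in NSCL61 differed from the changes in OPCL61 by 7.70 ± 0.30 (adjusted p = 2.96e-07) and in ASTL61 by 7.19 ± 0.30 (adjusted p = 8.40e-07).

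Among the parents, AST lay 1.01 ± 0.21 below NSC in Pdgfrb (adjusted p = 0.00678), and OPC lay 8.58 ± 0.21 below NSC and 7.58 ± 0.21 below AST. NSCL61 lay 0.89 ± 0.21 above OPCL61 (adjusted p = 0.0132), but both were near background, and without NSCL61 replicate 2 or OPCL61 replicate 2 the adjusted p was 0.105 or 0.0618 (range over the settings 0.0109 to 0.105). The other probe set showed no such difference, at -0.11 ± 0.18 for OPCL61 minus NSCL61 (adjusted p = 0.720). With the mean of its probe sets the difference was -0.50 (adjusted p = 0.0723). Pdgfrb was high where fibroblast genes were high. The mean of that list was 7.94 or more in all arrays with high Pdgfrb and 5.56 or less in all others. Smooth muscle actin, Acta2, a marker of mural cells, had 13.64 and 13.68 in NSC and 6.29 and 6.36 in NSCL61. It also had 10.40 and 8.36 in OPC, where Pdgfrb was near background. Notch3, of the same pericyte list, went the other way, with group means of 4.81 in NSC and 7.21 in OPC. The part of these markers in the Pdgfrb result was not tested.

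Among the ligands, Pdgfa was lowest in OPC and next lowest in NSC. Its values were 8.10 and 7.82 in NSC, 8.34 and 8.37 in NSCL61, 6.87 and 7.47 in OPC, 8.19 and 8.55 in OPCL61, 8.56 and 8.36 in AST and 8.48 and 8.66 in ASTL61. Every OPC value lay below all 10 others. Both NSC values lay below all those of NSCL61, OPCL61, AST and ASTL61. AST exceeded NSC by 0.50 ± 0.21, which did not pass (adjusted p = 0.1005). PDGF-A is the classical mitogen of OPC, and the OPC medium contained it as protein. NSC also grew with PDGF at 10 ng/ml, and the part of added PDGF in the levels of Pdgfa was not tested. Pdgfa rose by 1.20 ± 0.21 (2.29-fold; adjusted p = 0.00118) from OPC to OPCL61, and the other probe set gave 1.20 ± 0.20. It differed by 0.40 ± 0.21 in NSCL61 (adjusted p = 0.167) and by 0.11 ± 0.21 in ASTL61 (adjusted p = 0.936), neither of which passed.

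OPC lay below AST in Pdgfa by 1.29 ± 0.21 (adjusted p = 6.70e-04) and below NSC by 0.78 ± 0.21 (adjusted p = 0.0109). The latter was -0.64 without NSC replicate 1 (adjusted p = 0.0713) and -0.48 without OPC replicate 1 (adjusted p = 0.0858; range over the settings 0.00311 to 0.0858). The other 5 groups in order, ASTL61, AST, OPCL61, NSCL61 and NSC, did not differ from their neighbours beyond the spread (adjusted p from 0.167 to 0.976). The rise of Pdgfa in OPCL61 exceeded the change in ASTL61 by 1.08 ± 0.29 (adjusted p = 0.0187). That call was lost without OPC replicate 1, OPCL61 replicate 2, AST replicate 1 or ASTL61 replicate 1, with adjusted p from 0.0512 to 0.0657 (range over the settings 0.00616 to 0.0657). Against NSCL61 it was 0.80 ± 0.29 (adjusted p = 0.0585). That difference passed in 3 of 18 settings, without OPC replicate 2 (1.10), without OPCL61 replicate 1 (0.98) and with the mean of the probe sets (0.80), and was 0.50 without OPC replicate 1 (adjusted p over the settings 0.0141 to 0.180).

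Pdgfb was measured well above the filter level in AST and ASTL61 and lay near it elsewhere. The probe set used gave 8.26 and 8.04 in AST and 8.10 and 6.47 in ASTL61. It gave 5.23 and 4.85 in NSC, 5.07 and 5.09 in NSCL61, 4.77 and 4.73 in OPC and 6.13 and 5.30 in OPCL61. The arrays of AST and ASTL61 lay above all others, and those of ASTL61 differed from each other the most (SD 1.15). PDGF-B is known as the ligand with which endothelial cells recruit pericytes, and the endothelial markers Pecam1 and Cdh5 had 3.66 to 3.99 in AST.

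AST were higher than NSC in Pdgfb by 3.11 ± 0.45 (adjusted p = 0.00104) and higher than OPC by 3.40 ± 0.45 (adjusted p = 1.84e-04). Both lower groups lie under 5.18, so these differences may be lower bounds. A second probe set gave smaller differences, 1.37 above NSC and 1.43 above OPC. With HRasL61 Pdgfb passed the test in no line. It differed by 0.04 ± 0.45 in NSCL61 (adjusted p = 0.958), by 0.97 ± 0.45 in OPCL61 (adjusted p = 0.103) and by -0.87 ± 0.45 in ASTL61 (adjusted p = 0.738). With only the arrays compared the difference in OPCL61 passed (adjusted p = 0.0494; range over the settings 0.0494 to 0.426), and with 1 array left out it was 0.55 to 1.38. The difference in ASTL61 was -1.68 without ASTL61 replicate 1 and -0.053 without ASTL61 replicate 2, and passed in no setting. The changes in OPCL61 and ASTL61 differed by 1.84 ± 0.63 (adjusted p = 0.0480). This call was lost in 9 of 19 alternative settings, among them without either AST array, without either OPC array, without OPCL61 replicate 1 (1.42, adjusted p = 0.135) and without ASTL61 replicate 2 (1.02, adjusted p = 0.0849; range over the settings 0.00194 to 0.135).

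Pdgfc was high in NSC, AST and ASTL61, as was Pdgfrb, and lower, but above 5.18, elsewhere. Its values were 11.03 and 10.41 in NSC, 10.61 and 10.13 in AST and 10.59 and 10.12 in ASTL61. They were 7.86 and 8.11 in OPC, 6.93 and 7.05 in NSCL61 and 6.54 and 7.16 in OPCL61. The first 3 groups overlapped with each other and lay above every array of the last 3. PDGF-C is secreted in a latent form and is active once proteases such as tissue plasminogen activator remove its CUB domain. Pdgfc fell by 3.73 ± 0.28 (13.3-fold; adjusted p = 1.10e-05) from NSC to NSCL61, and by 3.48 ± 0.26 with the other probe set.

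From OPC to OPCL61 Pdgfc fell by 1.14 ± 0.28 (2.20-fold; adjusted p = 0.00820). Without OPC replicate 2 this was -1.01 (adjusted p = 0.0584) and without OPCL61 replicate 1 it was -0.82 (adjusted p = 0.0591; range over the settings 0.00299 to 0.0591). In ASTL61 the difference was -0.01 ± 0.28 (95% interval -0.65 to 0.62; adjusted p = 0.996). The fall in NSCL61 was larger than that in OPCL61 by 2.60 ± 0.40 (adjusted p = 8.42e-04) and differed from ASTL61 by 3.72 ± 0.40 (adjusted p = 1.92e-04). The changes in OPCL61 and ASTL61 differed by -1.13 ± 0.40 (adjusted p = 0.0531), which passed in 8 of 19 settings, among them with the other probe set (-1.21), with the mean of the probe sets (-1.17) and without OPCL61 replicate 2 (-1.44; adjusted p over the settings 0.0262 to 0.174). In order of level NSC, AST and ASTL61 did not differ as neighbours (adjusted p = 0.395 and 0.996), ASTL61 lay 2.37 ± 0.28 above OPC, OPC 1.00 ± 0.28 above NSCL61 (adjusted p = 0.0132), and NSCL61 did not differ from OPCL61 (adjusted p = 0.766). Over the 12 arrays Pdgfc had a Pearson r of 0.943 with Pdgfrb. The arrays share cell type and line in pairs, so this is a description.

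Pdgfd was high in NSC and NSCL61, near background in OPC and AST, and raised in OPCL61. Its values were 7.54 and 7.65 in NSC, 7.07 and 7.45 in NSCL61 and 5.97 and 7.34 in OPCL61. They were 3.57 and 3.75 in OPC, 4.41 and 4.71 in AST and 5.28 and 3.96 in ASTL61. Both OPCL61 arrays lay above all OPC, AST and ASTL61 arrays, though they differed from each other (SD 0.97). PDGF-D also carries a CUB domain that is removed before it binds its receptor. Pdgfd rose by 2.99 ± 0.47 (adjusted p = 6.37e-04) from OPC to OPCL61, 7.95-fold from a level that may be background. The second probe set rose by 2.83 ± 0.47 (adjusted p = 8.96e-04), and the change was 2.30 without OPCL61 replicate 2 and 3.68 without OPCL61 replicate 1.

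The rise of Pdgfd in OPCL61 exceeded the change in NSCL61 by 3.32 ± 0.66 (adjusted p = 0.00367) and in ASTL61 by 2.93 ± 0.66 (adjusted p = 0.00806). In NSCL61 Pdgfd differed from NSC by -0.33 ± 0.47 (adjusted p = 0.630) and in ASTL61 from AST by 0.06 ± 0.47 (adjusted p = 0.992). OPC lay 3.93 ± 0.47 and AST 3.03 ± 0.47 below NSC (adjusted p = 9.19e-05 and 0.00152). NSC, NSCL61 and OPCL61 did not differ as neighbours (adjusted p = 0.630 and 0.383), and neither did ASTL61, AST and OPC (adjusted p = 0.992 and 0.138). With only the arrays compared, however, the difference of OPC from AST passed (-0.90 ± 0.15, adjusted p = 0.00370). The remaining probe set of Pdgfd lay between 2.76 and 3.23 on all 12 arrays, did not pass the filter and showed none of this, and was left out of the test. The other 13 probe sets of the family passed it.

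**Figure D3:**
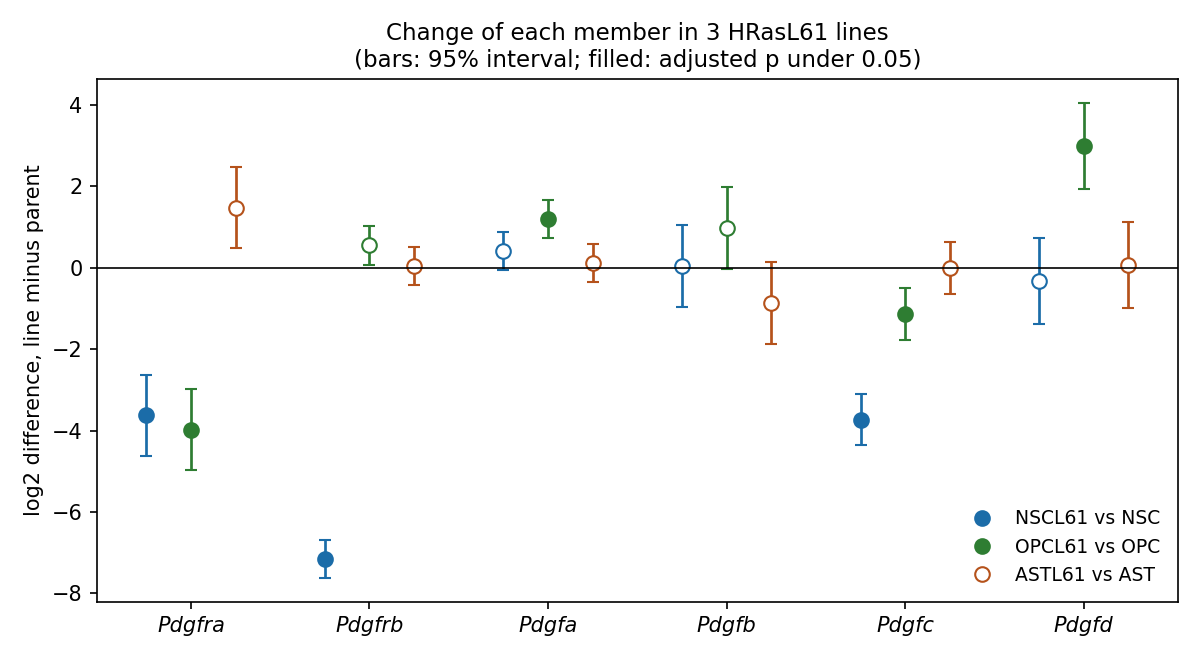
Log2 difference of each gene between a HRasL61 line and its parent, with 95% intervals, in NSCL61, OPCL61 and ASTL61, where filled points have an adjusted p under 0.05. Pdgfra lies at -3.62 and -3.98 in the first 2 lines, Pdgfrb at -7.15 in NSCL61, Pdgfd at 2.99 in OPCL61, and no ASTL61 point is filled.

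Counted together, 3 of the 6 genes fell in NSCL61 (Pdgfra, Pdgfrb and Pdgfc) and 3 did not pass, where 37.8% of all 12835 genes tested passed, 20.7% rising and 17.1% falling. The median difference of the 6 was -1.98, against 0.04 over all genes. In OPCL61 2 rose (Pdgfa and Pdgfd), 2 fell (Pdgfra and Pdgfc) and 2 did not pass, where 48.5% of genes passed, 24.5% rising and 23.9% falling, so 4 of 6 is near this high background. In ASTL61 limma called 0 of 6, and 1, Pdgfra, had an unadjusted p under 0.05. Only 0.0234% of all genes, 3 genes, passed in that comparison. Of the 13 probe sets tested, 7 fell in NSCL61, where 37.0% of all 23080 passed. In OPCL61 5 rose and 5 fell, where 48.8% passed. In ASTL61 limma called 0, where 0.0173% passed, and the 3 of Pdgfra had an unadjusted p under 0.05.

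The changes themselves differed between lines. Between OPCL61 and NSCL61 they differed in 3 genes, Pdgfrb, Pdgfc and Pdgfd, where 37.9% of genes passed. Between ASTL61 and NSCL61 they differed in 3, Pdgfra, Pdgfrb and Pdgfc, where 25.3% passed. Between OPCL61 and ASTL61 they differed in 4, Pdgfra, Pdgfa, Pdgfb and Pdgfd, where 35.4% passed.

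**Figure D4:**
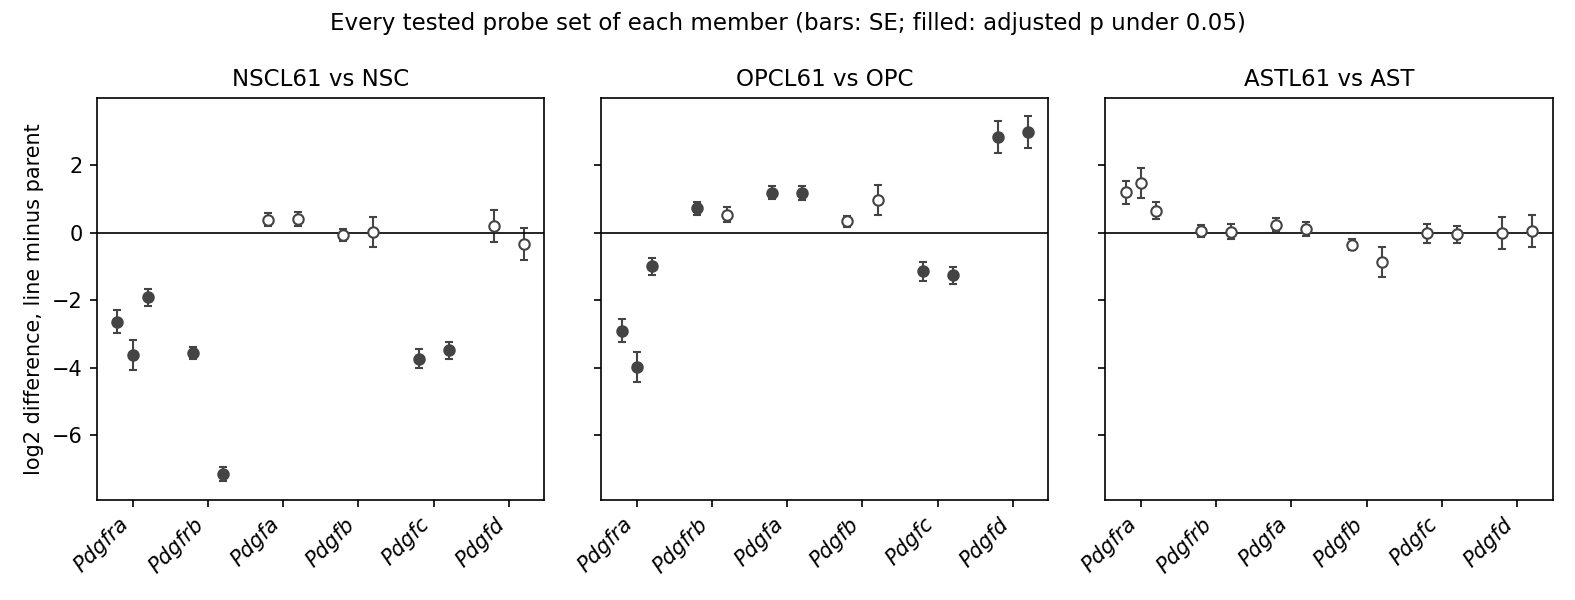
Log2 difference of each of the 13 tested probe sets between line and parent, with SE bars, by gene, where filled points have an adjusted p under 0.05. Probe sets of a gene agree in sign wherever any passes, and differ in size, as for Pdgfrb in NSCL61 at -7.15 and -3.56.

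Between the parents, OPC against AST differed in 5 of 6 genes, Pdgfra higher in OPC by 4.07 ± 0.44 (adjusted p = 5.51e-05) and Pdgfrb, Pdgfa, Pdgfb and Pdgfc lower, where 51.7% of genes passed. OPC against NSC differed in 4, Pdgfrb, Pdgfa, Pdgfc and Pdgfd, all lower in OPC, where 51.5% passed, so the count of 4 of 6 is near the background. AST against NSC differed in 4, with Pdgfra lower by 3.14 ± 0.44 (adjusted p = 9.56e-04), Pdgfrb and Pdgfd lower and Pdgfb higher in AST, where 30.4% passed. These comparisons share arrays with each other and with those of the lines.

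Between the lines, NSCL61 and OPCL61 differed in 1 gene, Pdgfrb, where 26.7% of genes passed. Its other probe set did not share this call (-0.11 ± 0.18, adjusted p = 0.720). For Pdgfra the difference of OPCL61 from NSCL61 was 0.57 ± 0.44 (95% interval -0.43 to 1.56), for Pdgfc -0.14 ± 0.28 (-0.77 to 0.50) and for Pdgfd -0.61 ± 0.47 (-1.66 to 0.44). ASTL61 differed from NSCL61 in 5 of 6, where 32.7% of genes passed. Pdgfrb was higher in ASTL61 by 6.19 ± 0.21, Pdgfc by 3.37 ± 0.28, Pdgfra by 1.96 ± 0.44 and Pdgfb by 2.20 ± 0.45 (1.39 without ASTL61 replicate 1) and Pdgfd differed by -2.64 ± 0.47.

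OPCL61 differed from ASTL61 in 5 of 6, where 36.6% of genes passed. Pdgfrb differed by -7.08 ± 0.21 and Pdgfc by -3.51 ± 0.28, and these calls held in all 15 alternative settings. The other 3 did not. Pdgfra, at -1.39 ± 0.44 (adjusted p = 0.0350), was lost with the mean of the probe sets (-0.89, adjusted p = 0.0594) and with array weights (adjusted p = 0.105). Its other probe sets gave -0.73 and -0.54 and did not pass (adjusted p = 0.126 and 0.132). The call was also lost without OPCL61 replicate 2 (-0.93) and without either ASTL61 array (-1.41 and -1.36). Pdgfb, at -1.57 ± 0.45 (adjusted p = 0.0222), was lost without OPCL61 replicate 2 (adjusted p = 0.135) and without ASTL61 replicate 1 (-0.75, adjusted p = 0.103; range 9.75e-04 to 0.135), and was -2.38 without ASTL61 replicate 2. Pdgfd, higher in OPCL61 by 2.04 ± 0.47 (adjusted p = 0.00822), had 1.38 without ASTL61 replicate 2 (adjusted p = 0.0554; range 0.00227 to 0.0800) and 1.35 without OPCL61 replicate 2.

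Other genes of the pathway were counted from 6 lists. Over all genes tested, 20.7% rose and 17.1% fell in NSCL61, 24.5% rose and 23.9% fell in OPCL61, and 0.0234% passed in ASTL61. The first list held 6 related receptor kinases, the class III kinases Kit, Flt3 and Csf1r and the VEGF receptors Flt1, Kdr and Flt4, and all were tested. In NSCL61 3 rose, Flt4 by 1.21 ± 0.22, Flt3 by 0.71 ± 0.18 and Kdr by 0.70 ± 0.22, and Flt1 fell by 1.68 ± 0.44. Without NSC replicate 2 or NSCL61 replicate 1 a single kinase rose, and without NSC replicate 1 or NSCL61 replicate 1 limma called 0 as falling. In OPCL61 Flt1 rose by 1.63 ± 0.44 and Flt3 by 1.41 ± 0.18, and Kit, the stem cell factor receptor, fell by 1.57 ± 0.23. The rise of Flt1 had an adjusted p of 0.0586, 0.0525 and 0.0901 without OPC replicate 1, OPC replicate 2 and OPCL61 replicate 1.

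Of 7 ligands of related receptors, 3 fell in NSCL61, Vegfd by 3.82 ± 0.46, Csf1 by 3.56 ± 0.26 and Vegfc by 2.46 ± 0.18. In OPCL61 3 rose, Vegfc by 1.47 ± 0.18, Vegfa, the main angiogenic VEGF, by 1.19 ± 0.39 and Pgf by 0.80 ± 0.26. The number rising was 1 without OPC replicate 2 or OPCL61 replicate 1. Vegfa was also lost without OPC replicate 1 and Pgf without OPCL61 replicate 2. Of 10 genes tested for proteins that process PDGFs or bind them or their receptors, 1 rose and 2 fell in NSCL61. These were Furin, the protease that cleaves PDGF-A and PDGF-B precursors, up by 0.69 ± 0.14, the PDGFRβ co-receptor Lrp1 at -2.40 ± 0.38 and Pcsk6 at -1.01 ± 0.21. With the probe set of lowest adjusted p taken for each gene, 5 fell. In OPCL61 4 rose and 2 fell. Nrp2 rose by 3.42 ± 0.25, Sparc, a matrix protein that binds PDGF-B, by 1.90 ± 0.25 and Furin by 1.49 ± 0.14, while Lrp1 fell by 1.90 ± 0.38 and Pcsk6 by 0.71 ± 0.21, the latter not passing without OPC replicate 1 or OPCL61 replicate 2 (adjusted p = 0.134 and 0.109).

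Of 21 proteins that act next to the activated receptor, 6 rose and 6 fell in NSCL61 and 6 rose and 7 fell in OPCL61. Over all genes 20.7% rose and 17.1% fell in NSCL61, and 24.5% rose and 23.9% fell in OPCL61. The adaptor Grb2 rose in both lines, by 0.86 ± 0.15 and 1.18 ± 0.15, and the docking protein Gab1 fell in both, by 1.94 ± 0.16 and 2.98 ± 0.16. With the mean of its probe sets Grb2 changed by 0.36 and 0.55. Sos2, a Ras exchange factor, rose by 1.37 ± 0.15 in NSCL61, and the adaptor Shc1 by 2.34 ± 0.15 in OPCL61, where the PI3 kinase subunit Pik3r1 fell by 2.66 ± 0.23 and the Src family kinase Fyn fell by 2.50 ± 0.22. The 6 rises in NSCL61 were 3 without NSC replicate 2 and 2 without NSCL61 replicate 1.

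Of 14 negative regulators of receptor signalling, 4 rose and 2 fell in NSCL61 and 7 rose and 3 fell in OPCL61. The shares of all genes that passed in these lines were 37.8% and 48.5%. In NSCL61 Slc9a3r1, a scaffold protein that binds PDGF receptors, rose by 3.27 ± 0.42, the cytokine signalling inhibitor Socs3 by 1.37 ± 0.26 and the phosphatase Ptpn12 by 1.16 ± 0.15, and the adaptor Grb10 fell by 2.02 ± 0.24. In OPCL61 Errfi1, a feedback inhibitor of the EGF receptor, rose by 4.07 ± 0.41, the adaptor Sh2b3 by 2.56 ± 0.32 and Ptpn12 by 1.16 ± 0.15. When probe sets were averaged, 1 fell in either line.

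Of 17 early genes that PDGF induces in cultured cells, 2 rose and 4 fell in NSCL61, and 11 rose and 2 fell in OPCL61, with medians of -0.38 and 1.17 against 0.04 and 0.05 over all genes. In these lines 20.7% and 24.5% of all genes rose, and 17.1% and 23.9% fell. In OPCL61 the chemokine Ccl2 rose by 6.12 ± 0.38, and the transcription factors Egr3 by 4.44 ± 0.56 and Egr1 by 2.92 ± 0.68 (1.76 without OPC replicate 1), while the hyaluronan synthase Has2 fell by 3.03 ± 0.79, with an adjusted p of 0.0563 without OPC replicate 1. Egr3 changed by 2.23 with the mean of its probe sets. In NSCL61 the transcription factor genes Egr2 and Fos fell by 1.96 ± 0.58 and 1.81 ± 0.64, calls that were lost without NSC replicate 1 or either NSCL61 array, and the matricellular gene Ccn1 fell by 1.68 ± 0.26. Fosb rose by 1.41 ± 0.26. The 4 falls in NSCL61 were 2 without NSC replicate 1 or NSCL61 replicate 2, and the 2 rises were 1 without NSC replicate 2 or either NSCL61 array. The 2 falls in OPCL61 were 1 without any 1 of the 4 arrays compared. In ASTL61 limma called 0 genes of the 6 lists, and 3 receptor-proximal genes, 4 negative regulators and 3 early genes, all higher in ASTL61, had an unadjusted p under 0.05. Without AST replicate 1 or ASTL61 replicate 1 a single negative regulator passed, and without ASTL61 replicate 1 a single early gene.

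Genes with profiles most like those of the family were sought among the 2596 others whose group means spanned at least 2 log2 units, by Pearson r over the 12 arrays. Pdgfrb was most like Bgn (r = 0.995), Gpr176, Lox, Col1a2 and Igfbp7, of which Bgn, Lox and Col1a2 encode a proteoglycan, an enzyme and a collagen of the extracellular matrix. Bgn had group means of 13.25 in NSC, 12.81 in AST and 12.84 in ASTL61, and of 4.68 to 5.23 in the others. Pdgfc was most like Prss23 (r = 0.977), Msrb3, the smooth muscle genes Acta2 and Tagln, and Col1a2. Pdgfra was most like Mcf2l (r = 0.969), the sulfatase gene Sulf2, Mettl7a1 and the protocadherins Pcdhb21 and Pcdhb22. Pdgfb was most like Ces1g (r = 0.969), the endothelin gene Edn1, the chemokine Cxcl10, Zc3h12a and Macc1, and Pdgfd most like Itgbl1 (r = 0.950), Gpnmb, Kif16b, the transcription factor Pax3 and Arhgap29. The group means of Pdgfa spanned 1.396 and so it was not matched. The arrays of a group share their cells, so these values are descriptions.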

How the data were processed

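Total RNA (5 µg) was copied into biotinylated cRNA in 1 cycle, per the labels' protocols, and hybridised to 12 arrays in 6 groups of 2. The deposited values are log2 signals for 45101 probe sets, made by the authors. No source used here names their background correction, summarisation or normalization. Gene symbols came from the array's annotation, and 34741 of 34945 probe sets with 1 symbol matched mouse RefSeq (GRCm38.p6) by Entrez identifier, with 0 symbols changed.

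Probe sets with a group mean above 5.183, the median of all values, entered the fits, and a gene was represented by its kept probe set with the highest mean. One linear model of 6 group means was fitted to the 12835 genes with limma 3.58.1 in R 4.3.3, and another to all 23080 kept probe sets. Differences are given with the moderated standard error and 2-sided p-values adjusted over all genes (Benjamini-Hochberg, threshold 0.05) in 12 comparisons, of which 3 compare the changes of 2 lines. The procedure was tested on simulated data. The number of arrays limits the precision. A difference to or from a group under 5.183 may be a lower bound.

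The genes named are the 6 members, up to 3 genes of each pathway list in each direction, those with the largest change past the threshold, markers that check a label, and the 5 genes most correlated with a member. Motifs were searched with Python 3.11.15. The members and lists were chosen with earlier results of these data known. List members without a probe set of 1 symbol were not analysed here. The alternatives were quantile normalization, centring, no filter or one at 7.562, other choices of probe set, a replicate block, another prior, array weights, only the arrays compared and leaving out each array. Where every kept probe set was fitted, the probe set with the lowest adjusted p stood for its gene. A fit without both NSC arrays was added after seeing the data.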

Additional observations from a re-analysis of the deposited data

Results flagged for a closer look

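The change with HRasL61 differed between lines, by limma's test of the difference between changes, in 10 instances. For Pdgfrb the change in OPCL61 minus that in NSCL61 was 7.70 (0.55 against -7.15) and that in ASTL61 minus NSCL61 was 7.19 (0.04 against -7.15). For Pdgfc the same differences were 2.60 and 3.72, and for Pdgfd in OPCL61 minus NSCL61 the difference was 3.32. For Pdgfra ASTL61 minus NSCL61 was 5.09 and OPCL61 minus ASTL61 was -5.45. For OPCL61 minus ASTL61 the differences were 1.08 for Pdgfa, 1.84 for Pdgfb (adjusted p = 0.0480) and 2.93 for Pdgfd. The Pdgfa and Pdgfb differences were lost in some settings, as given with those genes.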

How the results depend on the processing

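Under the alternatives 179 counts of members called stayed within 1.5 times the count reported and 8 did not. Of the member differences 1056 kept their direction and their side of the threshold, 30 lost a call, 19 gained one and 17 changed sign, none of them a called value. The count for OPCL61 against NSCL61 was 0 with the mean of the probe sets and 0 to 1 with an array left out, and for OPCL61 against ASTL61 it was 3 with only the arrays compared and 3 to 5 with an array left out. The count for the changes of OPCL61 against ASTL61 was 2 to 4 with an array left out. Signs changed for Pdgfb in NSCL61 against NSC (-0.0082 with the mean of the probe sets, -0.056 with that of lowest adjusted p, -0.15 to 0.23 with an array left out). Pdgfa changed sign between OPCL61 and NSCL61 (-1.38e-04 with quantile normalization, -0.17 to 0.19 with an array left out). So did the difference between the changes of Pdgfra in OPCL61 and NSCL61. It was 0.10 with the mean of the probe sets, 0.92 with that of lowest adjusted p and -0.81 to 0.10 with an array left out. With an array left out signs also changed for ASTL61 against AST in Pdgfrb (-0.048 to 0.13), Pdgfc (-0.25 to 0.23) and Pdgfd (-0.60 to 0.72), for OPCL61 against NSCL61 in Pdgfc (-0.45 to 0.18) and Pdgfd (-1.30 to 0.079), and for the changes of Pdgfd in ASTL61 against NSCL61 (-0.27 to 1.05). The cause was not tested. With the replicate number as a block the counts were 3, 4 and 0 in NSCL61, OPCL61 and ASTL61 against their parents, and no member call changed, while the fall of Fos in NSCL61 lost its call under the block (adjusted p = 0.0656) and with no filter (0.0589). The labels do not say what the numbers share, and deviations of same-numbered arrays correlated at -0.196 to 0.105 between groups.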
